A study of Mus musculus with 120 samples.

Results

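The 9 genes described here mark the alternative and classical ends of macrophage activation and the cytokine receptors that feed into them: Arg1, Retnla, Chil3, Il4ra, Il13ra1, Nos2, Acod1, Il33 and Il1rl1. They were taken by gene symbol from the 55487 genes listed in both count tables, and were chosen with earlier results of these data known. All 9 passed the filter on low counts in every comparison. The samples were immunological niches (INs), microporous polycaprolactone scaffolds placed under the skin of female mice and removed as biopsies for bulk RNA sequencing. NOD/ShiLtJ mice, which develop autoimmune diabetes, were called progressors if they became hyperglycemic and nonprogressors if they did not, and NOR/LtJ mice are a related diabetes-resistant strain. The labels name no transgene or test treatment, and all mice shared the implanted scaffolds, the repeated surgery and the analgesic carprofen given with it.

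There were 58 samples from 10 progressors, 39 from 11 nonprogressors and 23 from 5 NOR mice. Progressors were sampled at 6 weeks of age and then at 7, 5, 3 and 1 weeks before onset and at onset. Nonprogressors and NOR mice were sampled at 6, 10, 14, 18 or 22 weeks of age, and 6 nonprogressor samples are labelled by days after implantation (31, 38 or 108). Each removed IN was replaced with a fresh scaffold in rotation. In comparisons with 6 weeks of age, mouse age, number of surgeries and time of the scaffold in place cannot be told apart. Among later samples, age and number of surgeries still go together. The labels by age or onset do not give the time that a scaffold had been in place. Batch 1 (74 samples, 4722396 to 56185434 counts) held all NOR samples, and batch 2 (46 samples, 29029239 to 43880986 counts) held all samples from 7 weeks before onset. In 1 NOR library, from mouse 5 at 18 weeks, 1 ribosomal RNA gene took 85.7% of all counts. Leaving this library out changed the number of these genes past the threshold in none of the 3 comparisons that use NOR samples. The F test over NOR ages, added later, was not read without this library. Levels are read counts scaled to library size (CPM) after scaling of all 120 libraries to each other. In these bulk samples, fewer cells of a type and less RNA per cell cannot be told apart.

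Macrophages take up opposite programs in response to cytokines. Interleukin-4 and interleukin-13, acting through the receptor chains Il4ra and Il13ra1 and the transcription factor Stat6, induce arginase 1 (Arg1), the resistin-like protein Retnla and the chitinase-like protein Chil3, which are the customary mouse markers of alternative activation. Interferon-gamma and microbial products induce inducible nitric oxide synthase (Nos2) and the itaconate-producing enzyme Acod1, which are markers of classical activation. Arg1 and Nos2 use the same substrate, arginine. Interleukin-33, released by stromal and epithelial cells, signals through Il1rl1 (also called ST2) on mast cells, type 2 lymphoid cells, regulatory T cells and macrophages, and favors the alternative program.

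The INs held macrophage RNA in every sample: 8 of 9 macrophage markers had counts in all 120 libraries, among them Adgre1 (F4/80; 63.6 to 455 CPM) and Lyz2 (1408 to 6993 CPM), and Fcgr1 was at 0 in 1 library. The type 2 and type 1 ligands themselves were barely detected. Il4 had at most 6 counts and Il13 at most 25 in any library, and Ifng had at most 12.

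Per kilobase of exon, which allows levels to be compared between genes, Arg1 (median 67.6 CPM per kb), Il4ra (37.5) and Retnla (28.6) had the highest levels in batch 1. Il33 (16.6) and Il13ra1 (14.1) followed, and Chil3 (3.93), Nos2 (3.75), Acod1 (2.88) and Il1rl1 (1.5) were lowest. The interquartile ranges of neighbors in this order overlapped, and in batch 2 Retnla (55.5) stood first and Arg1 (28.2) came after Il4ra (41.3). The genes differed far more in their spread. In batch 1 the highest sample exceeded the lowest 1051-fold for Chil3, 352-fold for Arg1, 282-fold for Acod1 and 203-fold for Retnla, but 2.93-fold for Il4ra and 2.56-fold for Il13ra1.

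Arg1 and Chil3 rose in progressors. The contrast that was tested set the mean of the samples from 5 weeks before onset to onset (40 samples) against 6 weeks of age (10 samples), with the batch in the model. Arg1, on chromosome 10 (GRCm38, 24915221 to 24927484, minus strand), turns arginine into ornithine and urea. At 6 weeks of age its CPM in the 5 batch 1 mice was 13.2, 27.0, 3.88, 33.8 and 3.43, and in the 5 batch 2 mice it was 28.7, 98.6, 34.6, 62.8 and 60.7. At onset the same mice had 170, 320, 1209, 265 and 530 CPM in batch 1 and 89.6, 603, 689, 323 and 525.6 in batch 2. All 5 batch 1 onset samples and 4 of 5 in batch 2 lay above every 6-week sample of their batch. The medians at 5, 3 and 1 weeks before onset and at onset were 92.1, 142, 233 and 320 CPM in batch 1 and 131, 161, 251 and 525.6 in batch 2. Arg1 was higher by 3.00 on the log2 scale (SE 0.68, edgeR quasi-likelihood test, adjusted p = 0.000384), and its later mean exceeded the 6-week value in 10 of 10 mice, by 2.00 to 7.31. Batch 1 alone gave 4.19 (adjusted p = 0.00583) and batch 2 alone 2.23, which just missed the threshold (adjusted p = 0.050, edgeR).

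Chil3, on chromosome 3 (106147554 to 106167564, minus strand), encodes the secreted protein Ym1. At 6 weeks its CPM was 2.52, 1.15, 4.06, 1.27 and 1.68 in batch 1 and 2.99, 2.17, 5.61, 3.45 and 3.74 in batch 2. At onset it was 59.0, 24, 338, 27.4 and 75 in batch 1 and 19.5, 69.4, 77.7, 25.1 and 32.5 in batch 2. All 10 onset samples lay above every 6-week sample of their batch, and in 8 of 10 mice every sample from 5 weeks before onset on exceeded that mouse's 6-week value. The difference was 3.13 on the log2 scale (SE 0.64, edgeR adjusted p = 8.91e-05), with 4.02 in batch 1 alone (adjusted p = 0.0174) and 2.50 in batch 2 alone (adjusted p = 0.00287). The closely related Chil4, which could share reads with Chil3, had at most 17 counts in any library.

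In that contrast 4 of the 9 genes passed the threshold, against 39.5% of all genes tested, so the number of genes called was near that background. Arg1 and Chil3 were higher, and Il33 and Il13ra1 were lower. Il33 fell by 0.80 on the log2 scale (SE 0.17, edgeR adjusted p = 0.000187). Its 6-week values were 58.8, 96.8, 28.8, 59.5 and 27.4 CPM in batch 1 and 86.1, 95.5, 85.2, 144 and 127 in batch 2. At onset they were 39.3, 44.2, 22.8, 35.9 and 23 CPM in batch 1 and 29.4, 26.0, 33.4, 40.9 and 53.9 in batch 2. The batch 2 groups did not overlap, whereas in batch 1 they did. Il33 fell within each batch, by 0.78 in batch 1 (adjusted p = 0.0351) and by 0.85 in batch 2 (adjusted p = 0.000628, edgeR). Il13ra1, a chain of the interleukin-13 receptor and of one form of the interleukin-4 receptor, fell by 0.27 (SE 0.10, edgeR adjusted p = 0.0204). The batches differed here: in batch 2 the gene went from a median of 120 CPM at 6 weeks to 81.1 later and fell by 0.53 (adjusted p = 0.000319), and batch 1 alone gave 0.03 (adjusted p = 0.892, edgeR) with medians of 49.2 and 54.1 CPM. Il13ra1 also missed the threshold without mouse 6, 8, 9 or 10 (edgeR adjusted p = 0.0598, 0.0714, 0.0600 and 0.0717) and without the batch term (−0.34, adjusted p = 0.0742).

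**Figure D1:**
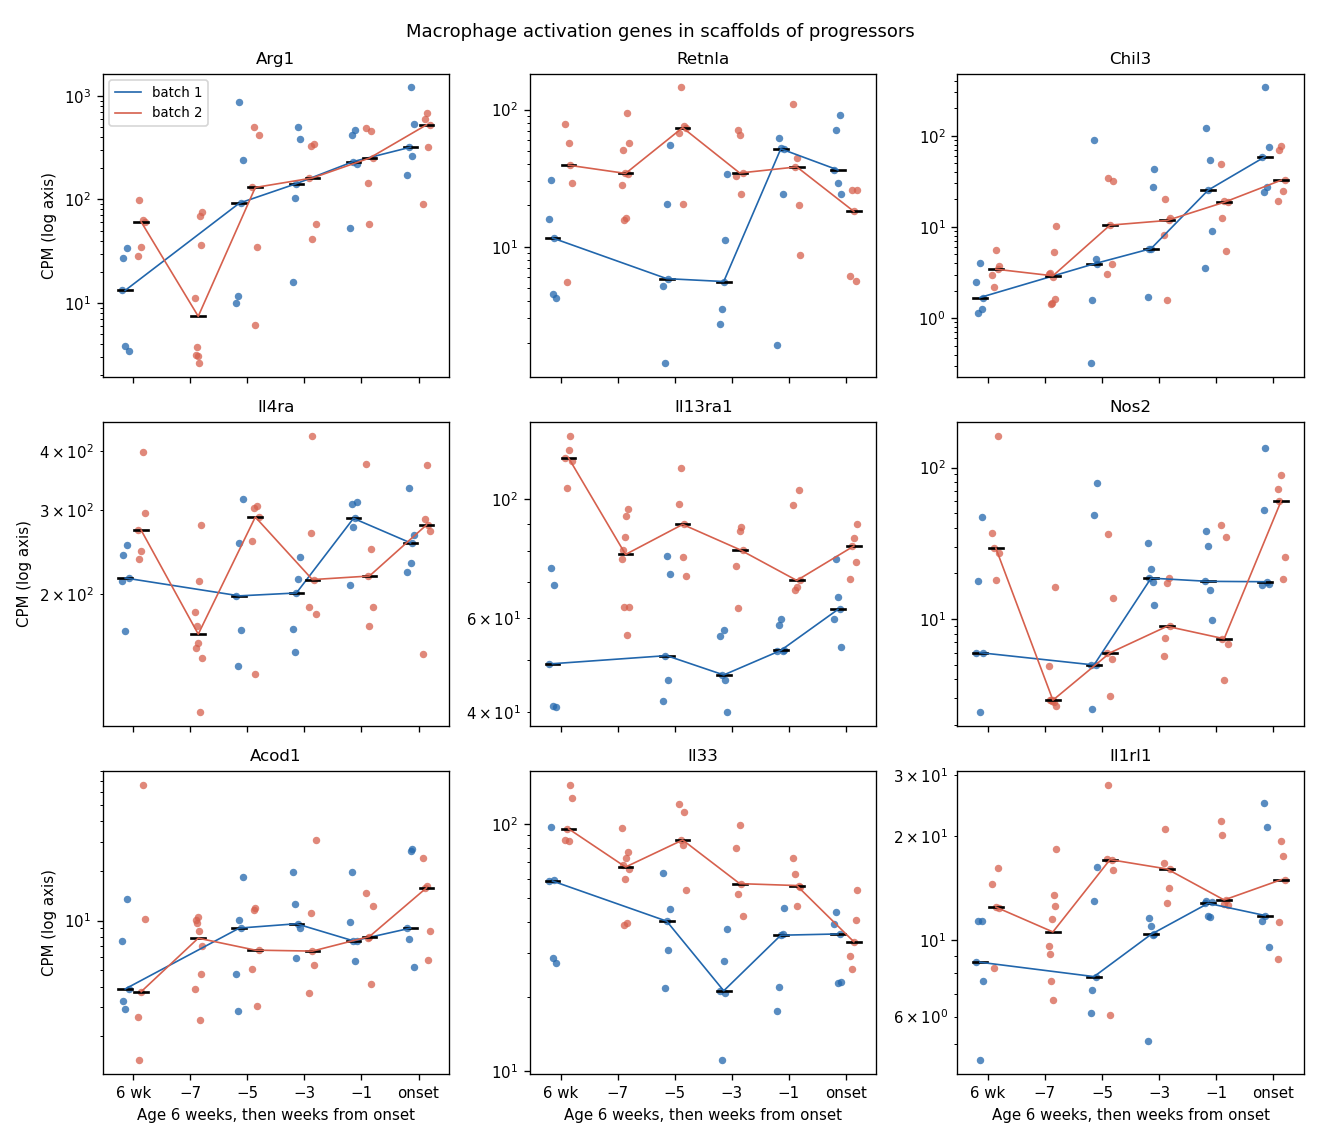
CPM (log axis) of each gene in INs of progressors at 6 weeks of age and at 7, 5, 3 and 1 weeks before onset and at onset; each point is 1 sample, black bars are medians and lines join them within batch 1 (blue) and batch 2 (red). Arg1 and Chil3 climb in both batches, Il33 declines, and Nos2 is lowest in the batch 2 samples from 7 weeks before onset (median 2.91 CPM).

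The other 5 genes did not pass the threshold between these later samples and 6 weeks. Retnla (log2 difference 0.55, SE 0.49), Il4ra (−0.04, SE 0.13), Nos2 (−0.58, SE 0.46), Acod1 (−0.06, SE 0.37) and Il1rl1 (0.38, SE 0.18) had edgeR adjusted p between 0.0884 and 0.916. For Nos2 the batches differed in sign: 0.81 in batch 1 (adjusted p = 0.401) and −1.47 in batch 2 (adjusted p = 0.0278). The values of Nos2 and Acod1 turned on 1 mouse. At 6 weeks progressor mouse 9 had 162 CPM of Nos2 and 66.1 of Acod1, when the other 4 batch 2 mice had 18.0 to 36.7 and 1.43 to 10.2. Without mouse 9, Nos2 gave 0.14 and Acod1 gave 1.07, and Acod1 then passed the threshold (edgeR adjusted p = 0.0106).

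Retnla, on chromosome 16 (48842551 to 48844461, plus strand), encodes the secreted protein RELMα and is a customary partner of Arg1 and Chil3. Its 6-week CPM was 4.24 to 30.5 in batch 1 and 5.52 to 78.4 in batch 2, and at onset it was 24.4 to 91.7 and 5.64 to 26.0. At onset against 5 weeks before onset, Retnla gave 1.55 in batch 1 alone (adjusted p = 0.372) and −2.25 in batch 2 alone (edgeR adjusted p = 0.0266). The signs were opposite, and the difference between the batches was not tested. Its paralog Retnlb had no count in any library and Retnlg at most 42. The sequences upstream of Retnla, Chil3 and Il33 are shown because these are, of the 7 genes with a RefSeq promoter, the ones with a match to the letters that Stat factors read, and because they took 3 different courses: Chil3 rose, Il33 fell and Retnla did not pass the test. The motifs searched were TTCNNNNGAA, the spacing that Stat6 prefers, and TTCNNNGAA, that of most other Stat factors; both read the same on either strand, and neither can cover the other. Capitals mark the match, and the bases, given 5′ to 3′ on the gene's strand, come from RefSeq on GRCm38 and end before the annotated start of the gene.
Retnla (chr16:48842359-48842550, plus strand): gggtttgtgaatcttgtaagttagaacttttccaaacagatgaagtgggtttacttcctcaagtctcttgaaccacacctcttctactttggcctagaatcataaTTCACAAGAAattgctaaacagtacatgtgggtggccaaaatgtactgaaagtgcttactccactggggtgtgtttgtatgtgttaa
Chil3 (chr3:106167565-106167814, minus strand): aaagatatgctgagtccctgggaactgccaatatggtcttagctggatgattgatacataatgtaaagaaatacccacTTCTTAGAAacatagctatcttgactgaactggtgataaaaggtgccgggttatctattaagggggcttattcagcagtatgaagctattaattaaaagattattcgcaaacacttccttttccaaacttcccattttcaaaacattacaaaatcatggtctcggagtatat
Il33 (chr19:29924863-29925112, plus strand): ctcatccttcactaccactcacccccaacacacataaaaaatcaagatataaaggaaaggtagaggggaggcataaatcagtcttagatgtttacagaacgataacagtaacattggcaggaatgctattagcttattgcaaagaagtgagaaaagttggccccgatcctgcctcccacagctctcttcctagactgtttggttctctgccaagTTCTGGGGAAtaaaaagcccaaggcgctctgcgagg
The wider Stat6 spacing lay 145 to 136 bases before the RefSeq start of Retnla and 36 to 27 bases before that of Il33, and 5.85% of 32851 mouse promoter windows of 250 bases held it. The narrower spacing lay 172 to 164 bases before the start of Chil3 and was found in 7.02% of the windows. These distances run from the RefSeq start, which for Retnla lies downstream of the last base printed, since its sequence ends at the earlier GENCODE start. A match of letters describes the sequence and shows no binding.

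Over all 6 time points of the progressors, 6 of 9 genes passed an F test against a background of 35.6%: Arg1 (adjusted p = 0.000138), Chil3 (6.90e-06), Il33 (0.000682), Nos2 (0.00190), Il4ra (0.0463) and Il13ra1 (0.0481, all edgeR). With the mouse as a block Il4ra (adjusted p = 0.280) and Il13ra1 (adjusted p = 0.0785, edgeR) did not pass. At 7 weeks before onset, 3 of 9 genes were lower than at 6 weeks of age (background 12.5% of all genes, with 6.64% lower and 5.91% higher). Nos2, on chromosome 11 (78920787 to 78960254, plus strand), fell by 2.87 on the log2 scale (SE 0.68, edgeR adjusted p = 0.00356). In 7 of the 8 samples from 7 weeks before onset it lay between 2.65 and 4.86 CPM, and the eighth, from mouse 9, had 16.4. The 6-week samples of batch 2 had 18.0 to 162 CPM, with no overlap. Low Nos2 was not particular to this time point in batch 2. There it lay below every 6-week progressor sample in 4 of 5 samples at 5 and at 3 weeks before onset. The same held for 3 of 5 at 1 week before onset and 0 of 5 at onset. In batch 2 nonprogressors, 5 of 6 samples at 14 weeks lay below every 6-week sample of that group. Il4ra fell by 0.61 (adjusted p = 0.0245) and Il13ra1 by 0.44 (adjusted p = 0.0260, edgeR). Il33 gave −0.71 (SE 0.26, edgeR adjusted p = 0.0561), and it passed with DESeq2 (adjusted p = 0.0358) and in batch 2 alone (−0.73, edgeR adjusted p = 0.0172, background 19.1%). Arg1 gave −0.53 (SE 0.74, adjusted p = 0.702): 5 of the 8 samples had 2.62 to 11.1 CPM and the other 3, from mice 7, 9 and 10, had 70.0, 36.0 and 76.3. With the mouse as a block, 0 of 9 genes passed (background 3.76%), with Nos2 at −2.74 (edgeR adjusted p = 0.0736). Without mouse 7 or without mouse 10 only Nos2 passed, 1 of 9. The 4 mice that had both samples in batch 2 gave Nos2 values of 36.7, 29.4, 162 and 27.1 CPM at 6 weeks and 2.91, 2.83, 16.4 and 2.65 CPM at 7 weeks before onset, lower in 4 of 4 mice. In this comparison 2 of 5 fibroblast and 2 of 5 epidermal markers were lower, as were 5 of 16 genes of arginine and nitric oxide metabolism, and the summed fibroblast markers of batch 2 were 28935 to 52673 CPM at 6 weeks and 11121 to 22996 at 7 weeks before onset; their part in the values of Nos2 was not tested.

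From 5 weeks before onset to onset no gene of the 9 passed (background 1.77%, with 0.945% of all genes lower and 0.827% higher), and 3 had an unadjusted p under 0.05: Chil3 (1.93, SE 0.65, adjusted p = 0.0975), Il33 (−0.77, SE 0.23, adjusted p = 0.0668) and Nos2 (1.29, SE 0.59, adjusted p = 0.227, edgeR). DESeq2 called Chil3 (adjusted p = 0.0391) and Il33 (adjusted p = 0.0315).

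Nonprogressors were compared between 10 to 22 weeks and 6 weeks of age. Retnla rose by 1.49 on the log2 scale (SE 0.55, edgeR adjusted p = 0.0461) and Il33 fell by 0.65 (SE 0.24, edgeR adjusted p = 0.0490), 2 of 9 genes against a background of 24.1%. DESeq2 called both and also Arg1 (1.41, adjusted p = 0.0434), which gave 1.39 with edgeR (adjusted p = 0.214). Neither Retnla nor Il33 passed with the mouse as a block (1.16, adjusted p = 0.163, and −0.68, adjusted p = 0.0953). The count also fell to 0 of 9 without mouse 1 or without mouse 2 and to 1 of 9 without mouse 3. The 2 batches held different mice, and their calls differed. In batch 1 alone, 3 of 9 genes were higher (background 13.8%): Arg1 by 3.72 (adjusted p = 0.00215), Chil3 by 2.67 (adjusted p = 0.00833) and Nos2 by 2.28 (adjusted p = 0.0413, edgeR). In batch 2 alone, where the only later age was 14 weeks, 2 of 9 were lower (background 34.1%): Il13ra1 by 0.72 (adjusted p = 0.000232) and Il33 by 0.93 (adjusted p = 0.00255, edgeR). Nos2 gave −1.67 there and missed the threshold (adjusted p = 0.0556, edgeR).

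The values of Arg1 and Chil3 at 14 weeks differed between the batches. The 4 batch 1 nonprogressors had 408, 378, 671 and 966 CPM of Arg1, and the 6 of batch 2 had 14.4 to 201 (median 40.1). Chil3 lay at 35.2, 47.8, 101 and 107 CPM in batch 1 and at 0.60 to 9.71 (median 1.55) in batch 2. These 2 genes of 9 (22.2%) did not overlap between the batches, against 19.5% of all genes, so the share was near that background. Batch and mice cannot be told apart. In the 16 later batch 1 samples the 4 at 10 weeks kept Arg1 at 4.00 to 36.0 CPM, while the 12 from 14 weeks on had 89.7 to 1136. At 22 weeks the gene Rn7s2 took 12.8, 19.2, 24.3 and 30.5% of counts in mice 1, 2, 3 and 4. Scaling took Arg1 of mouse 4 at that age from 567 to 1136 CPM. The value of 89.7, from mouse 3 at 18 weeks, came from the library of 4722396 counts. An F test over the 5 ages, chosen after the data had been seen, called 3 of 9 genes (background 34.7%): Arg1 (adjusted p = 0.00110), Chil3 (0.00242) and Acod1 (0.0414, all edgeR). It was read in the main fit only, without the mouse as a block.

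NOR mice stay free of diabetes, and their samples allow the ages to be followed within batch 1 and in 5 mice, of which 4 were sampled at 6 weeks. At 6 and 10 weeks Arg1 was at 15.6 to 94.5 CPM in 8 of 9 samples and at 179 in the ninth, and at 22 weeks the 5 mice had 505, 678, 688, 670 and 509. Chil3 went from 0.74 to 3.81 CPM at 6 weeks to 53.6, 61.2, 124, 49.2 and 37.4 at 22 weeks. Retnla reached 131, 220, 115, 61.5 and 188 CPM at 22 weeks, above all 18 other NOR samples except that of mouse 5 at 18 weeks (85.1). Il1rl1 went from 4.85 to 9.90 CPM at 6 weeks to 13.1 to 30.9 at 22 weeks, without overlap. The tested contrast of all later ages with 6 weeks called 0 of 9 genes (background 0.0357%), 4 had an unadjusted p under 0.05 and DESeq2 called Chil3 (2.65, adjusted p = 0.0457). The F test over the 5 ages, added after the data had been seen, called 7 of 9 genes against a background of 8.24%: Il1rl1 (adjusted p = 0.000187), Chil3 (0.000344), Nos2 (0.00108), Il4ra (0.00129), Retnla (0.00145), Acod1 (0.00203) and Arg1 (0.00497, all edgeR). Il13ra1 (0.0674) and Il33 (0.300) did not pass. This F test was read in the main fit only. It was not repeated without the 18-week library of mouse 5, without any mouse or with the mouse as a block.

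**Figure D2:**
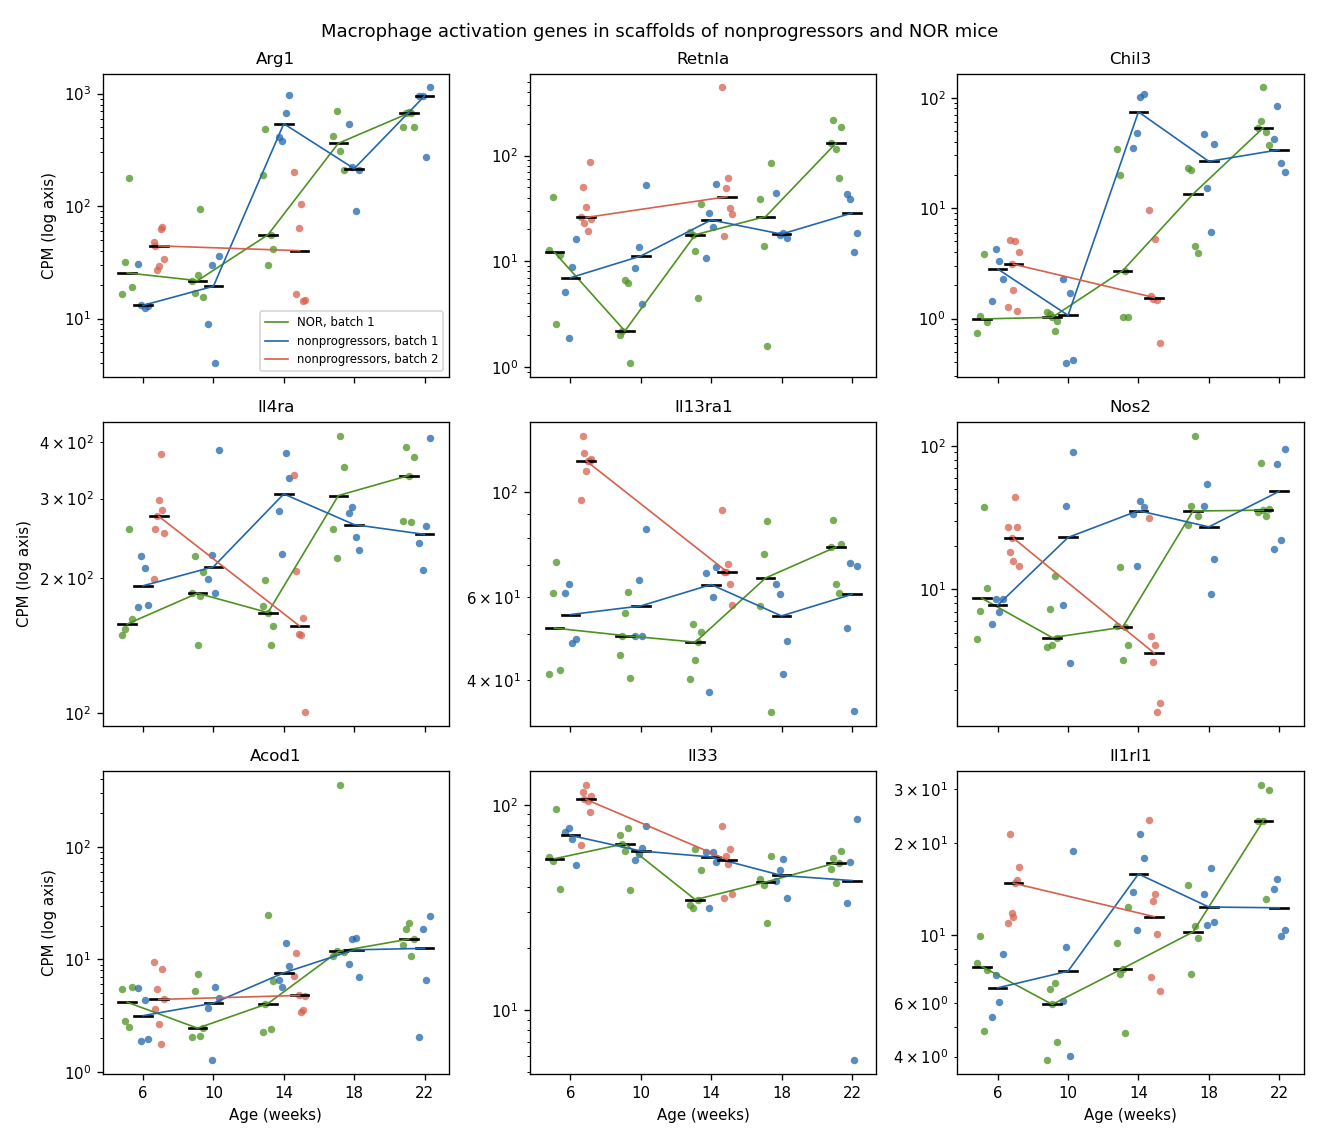
CPM (log axis) of each gene against age in weeks for NOR (green, batch 1) and nonprogressors (blue, batch 1; red, batch 2); points are samples, shifted sideways by group, and black bars are medians. At 14 weeks Arg1 and Chil3 are high in batch 1 nonprogressors (medians 540 and 74.5 CPM) but not in those of batch 2, which have no later age. At 22 weeks NOR samples have the highest Retnla and Il1rl1 medians (131 and 23.6 CPM).

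NOD against NOR, on the summed counts of each mouse in batch 1 (9 against 5 mice), called 0 of 9 genes (background 8.98%). The sums set progressor samples timed mostly by onset beside NOR samples timed by age. Retnla (−0.78, SE 0.34, adjusted p = 0.175) and Acod1 (−1.23, SE 0.47, adjusted p = 0.119) had an unadjusted p under 0.05, and DESeq2 called none. The value of Acod1 turned on NOR mouse 4, whose 18-week sample had 357 CPM when the other NOR mice had 10.7 to 11.8 at that age: without that mouse the difference was −0.08. In the same comparison 5 of 9 macrophage markers (Csf1r, Mertk, C1qa, C1qb and C1qc) and 4 of 6 mast cell markers were lower in NOD; their part in the members' values was not tested. Progressors alone against NOR, added after the data had been seen, called Il33, lower by 0.48 (edgeR adjusted p = 0.00614), and nonprogressors alone gave 0.09 (adjusted p = 0.420).

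Progressors against nonprogressors called 0 of 9 genes at 6 weeks of age (background 0%, 999 of 20090 genes at an unadjusted p under 0.05, none by DESeq2). Of the 9, Nos2 (1.14, SE 0.43) and Acod1 (1.36, SE 0.54) had an unadjusted p under 0.05 and adjusted p of 0.909 (edgeR). The later samples, summed per mouse, also called 0 of 9 (background 0%, 2238 of 23833 genes unadjusted, 146 by DESeq2, no member among them). There Chil3 (1.6, SE 0.51) and Acod1 (0.69, SE 0.21) had the smallest adjusted p, 0.370 and 0.355 (edgeR). Chil3 gave 0.32 in batch 1 alone and 2.74 in batch 2 alone, and the ages of the later progressor samples differ from those of the nonprogressors. The change after 6 weeks was also compared between groups. For progressors against nonprogressors no gene of the 9 passed (0 genes in all, 1531 at an unadjusted p under 0.05 by edgeR, background 0%; no member at an unadjusted p under 0.05; DESeq2 called 11 genes, no member). For nonprogressors against NOR none passed either (background 0%, 1250 genes at an unadjusted p under 0.05; Arg1 and Nos2 at an unadjusted p under 0.05, edgeR adjusted p 0.777 and 0.757; DESeq2 called 9 genes, no member).

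**Figure D3:**
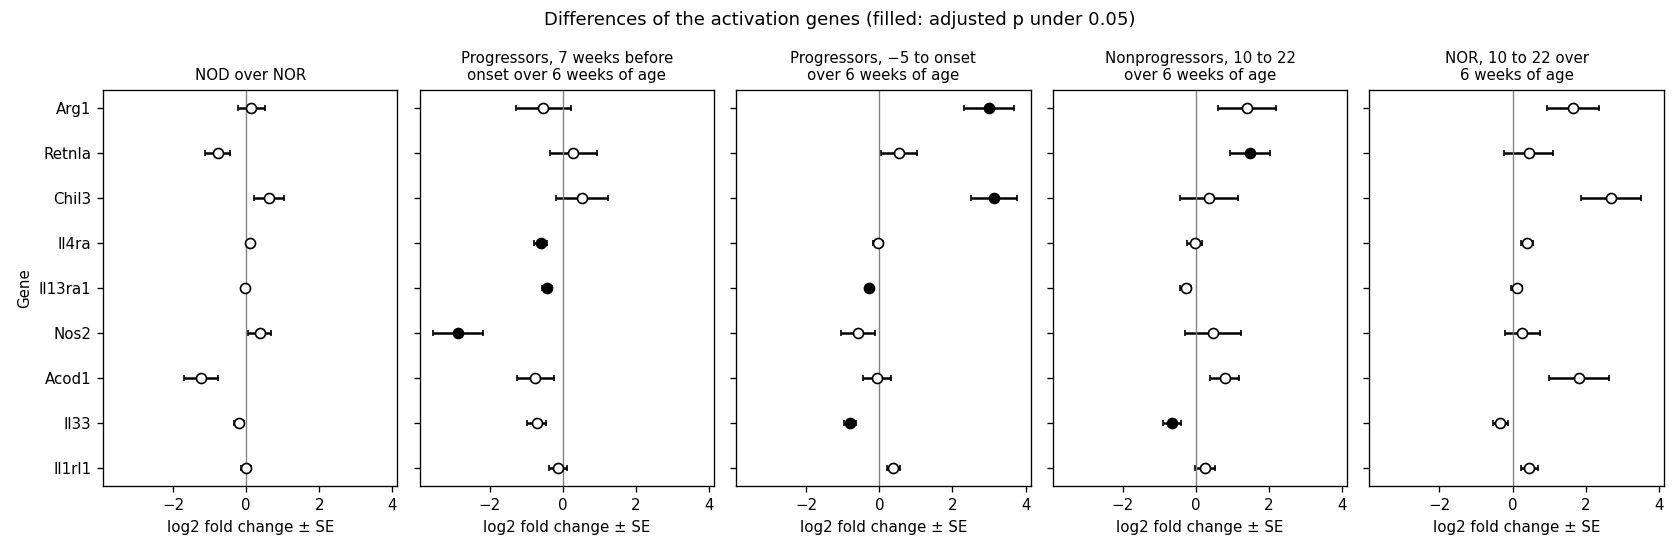
Log2 fold change with its SE (edgeR) of the 9 genes in 5 comparisons; filled points have an adjusted p under 0.05. Arg1 (3.00) and Chil3 (3.13) stand out among progressors from 5 weeks before onset on, Nos2 (−2.87) at 7 weeks before onset, and no point is filled for NOD over NOR or for the NOR ages. Batch 2 nonprogressors alone, not drawn, gave −1.67 for Nos2 (adjusted p = 0.0556, edgeR).

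Arg1 was above Nos2 per kilobase in 117 of 120 samples. The log2 ratio of Arg1 to Nos2 per kilobase had a median of 1.58 (batch 1) and 1.93 (batch 2) in progressors at 6 weeks and 4.33 and 4.31 at onset. In NOR it went from 3.02 at 6 weeks to 4.86 at 22 weeks. The 2 genes did not move in opposite directions across samples: their Spearman correlation was 0.73 over the 74 samples of batch 1 and 0.53 over the 46 of batch 2, where samples share mice and libraries are scaled to each other.

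Among 23908 other genes, Slc7a2, which encodes a transporter that carries arginine into the cell, was most like Arg1: Spearman rho 0.96 in batch 1 and 0.98 in batch 2. Its median rose from 61.7 CPM at 6 weeks to 395 at onset in batch 1 progressors and from 174 to 1090 in batch 2, and its difference was 2.02 (SE 0.38, edgeR adjusted p = 2.69e-05). Tnip3 (0.88 and 0.88) and F10 (0.92 and 0.86), the coagulation factor X gene, came next. Chil3 was most like Msx3 (0.87 and 0.76, with a median of 0.29 CPM), Pdcd1lg2 (0.74 and 0.74), which encodes the checkpoint ligand PD-L2, and Arg1 (0.81 and 0.73). Retnla was most like Duox2 (0.73 and 0.73), Ccl11 (0.67 and 0.63), the eosinophil chemoattractant eotaxin, and Ltc4s (0.70 and 0.63), the leukotriene C4 synthase. With Arg1, Retnla had a rho of 0.64 in batch 1 but 0.12 in batch 2, and with Chil3 0.57 and 0.04.

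Nos2 was most like Aldh1l2 (0.90 and 0.93), Pgf (0.88 and 0.90) and Slc16a3 (0.87 and 0.90), a lactate exporter. Il4ra was most like Ccl7 (0.73 and 0.77), Nos2 (0.75 and 0.71) and Man1a (0.70 and 0.77), so that a receptor of the alternative program followed the classical enzyme more closely than it followed Arg1 (0.64 and 0.36). Il4ra overlaps Gm44876 on the opposite strand, and whether the counting used strand is not given in the sources used here. Acod1 was most like Cxcl2 (0.82 and 0.83), a neutrophil chemoattractant, Nod2 (0.72 and 0.71) and Kcna3 (0.70 and 0.70). Il13ra1 was most like Ssr1 (0.84 and 0.83), Tbc1d8b (0.82 and 0.87) and Rnf19a (0.80 and 0.81). Il33 was most like Osmr (0.62 and 0.81), Ms4a4d (0.62 and 0.88) and Bicc1 (0.62 and 0.84). Its own receptor Il1rl1 was unlike it (−0.10 and 0.18) and was most like Aif1l (0.80 and 0.73), the mannose receptor Mrc1 (0.72 and 0.69) and Ptgs1 (0.76 and 0.67).

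**Figure D4:**
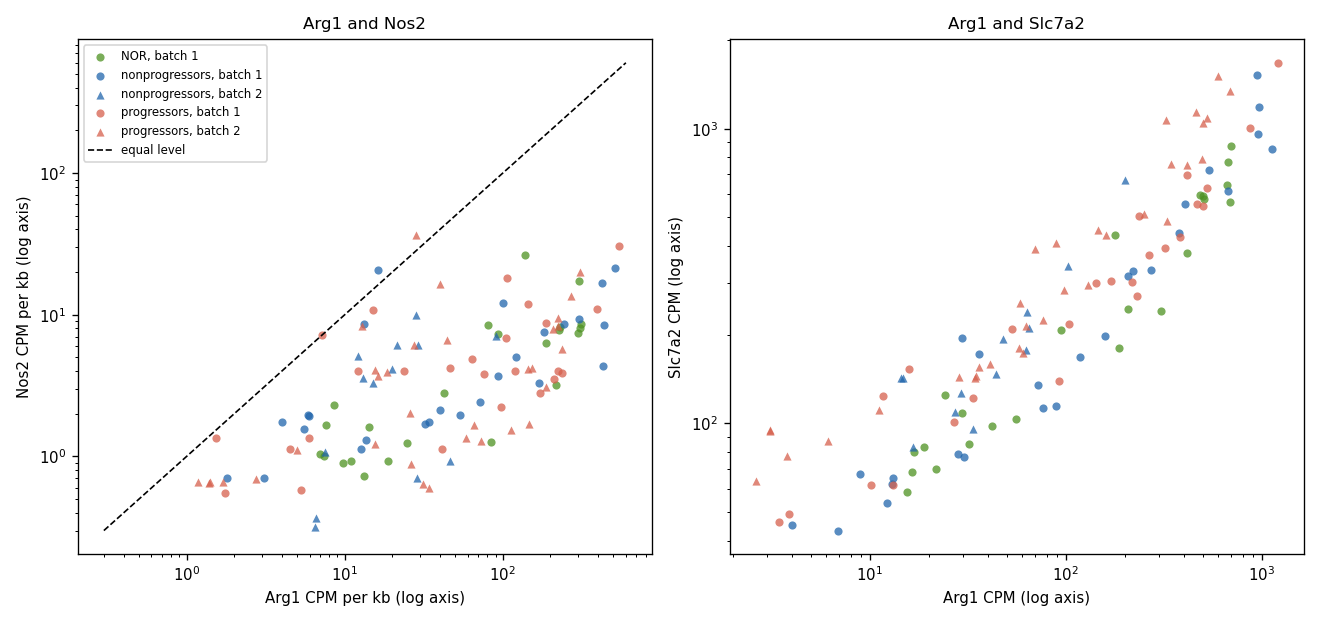
Arg1 against Nos2, both as CPM per kilobase (left), and against Slc7a2 in CPM (right), on log axes; each point is 1 of 120 samples, colored by group and shaped by batch. Arg1 lies above Nos2 in 117 samples (right of the dashed line of equal level), and Slc7a2 follows Arg1 closely within each batch (rho 0.96 and 0.98).

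Lists of genes around the 9 moved in mixed directions. In progressors from 5 weeks before onset, where 19.6% of all genes were higher and 19.9% lower, 6 of 21 tested genes of alternative activation were higher and 3 lower (median log2 difference 0.19, all genes 0.01). Pdcd1lg2 (2.32, SE 0.33) and the lectin Mgl2 (1.67, SE 0.32) were those with the smallest p among the higher genes, and the transcription factor Klf4 (−0.91) and the receptor chain Il2rg (−0.32) were lower. Of 19 classical genes, 4 were higher, among them Tnf (0.55) and Irf5 (0.29), and 4 lower (median −0.17), among them the scavenger receptor Marco (−3.95, SE 0.39, edgeR adjusted p = 4.57e-11) and the costimulatory ligand Cd80 (−0.99). Arginine and nitric oxide metabolism had 5 higher and 4 lower of 16 (median 0.01): Slc7a2 and Arg2 (0.80) were higher, and Srm (−0.66) and Oat (−0.45), which use ornithine or its products, were lower. Itaconate and its targets had 2 higher and 4 lower of 12, with Atf3 (0.72) and Gclm (0.28) against Keap1 (−0.17) and Idh2 (−0.25). Of 13 genes around Il33, 4 were higher and 2 lower, with the alarmin receptor Crlf2 (0.35) and Gata3 (1.83) against Myd88 (−0.33) and Il17ra (−0.25). Of 3 resistin-like and chitinase-like paralogs tested, Chil6 (1.32) and Chil1 (1.72) were higher; Chil6 had at most 39 counts.

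In nonprogressors (9.88% of all genes higher, 14.2% lower) the same lists gave 5 higher and 1 lower of 22 alternative genes, led by Alox15 (2.51) and Pdcd1lg2 (1.45) against Il2rg (−0.40), and 3 higher and 5 lower of 19 classical genes, with Irf5 (0.26) and Il1b (1.19) against Marco (−2.01). Arginine metabolism had 1 higher, Slc7a2 (1.48), and 3 lower of 16, led by Oat (−0.34) and Srm (−0.43). The itaconate list had Atf3 (0.65) higher of 12, the Il33 list Crlf2 (0.54) higher of 13, and the paralogs Chil1 (1.26) higher of 2. NOR ages called no gene of these lists. NOD against NOR (3.87% of all genes higher, 5.11% lower) called 2 higher and 2 lower of 22 alternative genes, with Mgl2 (2.10) and Ccl24 (0.74) against Clec10a (−1.01) and Alox15 (−2.27). It called 3 of 21 classical genes lower, led by Marco (−1.03) and Cd86 (−0.36), and Odc1 higher (0.51) and Srm lower (−0.53) of 16 arginine genes, and it called none of 12 itaconate genes, 14 genes around Il33 or 4 paralogs.

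Markers of other cells moved alongside. In progressors from 5 weeks before onset, 5 of 5 fibroblast markers were lower (Pdgfra −0.70 to Col3a1 −1.54), and their summed level went from 34305 to 63222 CPM at 6 weeks to 7141 to 33146 later in batch 1, and from 28935 to 52673 to 4290 to 26618 in batch 2. Il33 is a stromal cytokine, and its Spearman correlation with that sum was 0.19 in batch 1 and 0.73 in batch 2. With the summed monocyte markers it was 0.35 and 0.73, so the fibroblast markers were not singled out. Of 9 macrophage markers, only Fcgr1 passed (−0.69), and their sum was 4177 to 5943 CPM at 6 weeks and 3170 to 8552 later in batch 1, with 5701 to 7837 and 5240 to 9394 in batch 2. The macrophage sum correlated with Arg1 at −0.35 and −0.03, and with Chil3 at −0.26 and −0.01. Lyz2 (median 3265 CPM) and Cd68 (984 CPM) weighed most in that sum, and the next marker, Csf1r, had 501 CPM. Among the others 3 of 5 monocyte markers were lower, 4 of 6 T cell markers, 2 of 6 neutrophil markers, 1 of 4 eosinophil markers and 1 of 5 epidermal markers were higher, 3 of 5 endothelial markers were lower and 1 higher, and none of 6 mast cell, 5 dendritic cell, 5 adipocyte, 5 skeletal muscle and 3 erythroid markers passed. In nonprogressors after 6 weeks, too, 5 of 5 fibroblast markers were lower (Pdgfra −0.55 to Lum −1.18), as were 5 of 6 epidermal markers, 3 of 5 monocyte markers, Fcgr1 (−0.84), Flt3 and Tek, and Cxcr2, Foxp3 and Vwf were higher. The part of these shifts in the values of Il33, Arg1, Chil3 and Retnla was not tested.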

How the data were processed

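Total RNA was depleted of ribosomal RNA and sequenced in 2 batches. The authors deposited raw expected counts of each gene, with 1 table for each batch, and these were rounded to whole numbers for the tests. The submitters' processing notes name cutadapt, STAR and RSEM and the build GRCm38, with versions not given in the sources used here. Counts were tested in R 4.3.3 by the quasi-likelihood method of edgeR 4.0.16, after filterByExpr and TMM scaling, with 1 model per comparison and a threshold of 0.05 on p adjusted over all genes tested (Benjamini-Hochberg), with DESeq2 1.42.0 as an alternative and the batch as a term where both were used. Strains and later samples were compared on counts summed per mouse. In the other fits samples of 1 mouse entered separately, and the alternative for pairing adds each mouse as a block. Mouse numbers in the labels give the pairing. Sample deviations had a median r near 0 both within a mouse (−0.0029, 0.035 and −0.0016 in progressors, nonprogressors and NOR) and between mice (0.0015, −0.010 and −0.0053). Replicates were separate mice, and no pair of 239 agreed within sampling noise. SE is the log2 fold change divided by the root of F. Likeness is the lower of the Spearman correlations in both batches, on log2(CPM + 0.1). The fits were tested on simulated counts. Coordinates and exon lengths come from GENCODE M21. All 9 genes were tested in each comparison, and from other lists up to 2 in each direction are named, those of smallest p. The members and lists were chosen with earlier results of these data known. The motifs TGANTCA and TATAAA were searched first and are not reported. RefSeq promoters were found for 7 of the 9 genes. The counts of 4 reporter rows were left out. Library totals were 4722396 to 56185434 counts. Where each mouse gave 1 library or sum to a fit, the SE and p describe the spread between mice, not counting error. Where samples of 1 mouse entered separately, the SE and p describe the spread between samples, treated as independent unless the mouse was a block.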

Additional observations from a re-analysis of the deposited data

Results flagged for a closer look

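In 27 of 207 sets of 4 to 8 samples, 1 sample stood apart from the rest of its group and batch. The measure was its gap relative to the range (Dixon's criterion), which chance meets in about 1 of 20 sets of normally distributed values. CPM entered without a log transform, so that rate need not hold here and the 27 cannot be set against it. Values are CPM, with the range of the other samples of that group and batch after them.

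Arg1 stood apart in NOR mouse 4 at 6 weeks (179, others 16.5 to 31.9) and at 10 weeks (94.5, others 15.6 to 24.3), in nonprogressor mouse 1 at 6 weeks (30.2, others 12.3 to 13.2) and in progressor mouse 3 at 5 weeks before onset (873, others 10.1 to 238). Chil3 stood apart in the same 6-week NOR sample (3.81, others 0.74 to 1.05) and in progressor mouse 3 both at 5 weeks before onset (88.9, others 0.322 to 4.51) and at onset (338, others 24 to 75). It did so too in NOR mouse 3 at 22 weeks (124, others 37.4 to 61.2) and in progressor mouse 10 at 7 weeks before onset (10.2, others 1.43 to 5.31).

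Nos2 stood apart in 7 sets. In NOR these were mouse 2 at 14 weeks (14.2, others 3.20 to 5.55) and at 22 weeks (76.1, others 32.6 to 36.2) and mouse 4 at 18 weeks (117, others 27.9 to 37.9). In nonprogressors they were mouse 9 at 6 weeks (43.8, others 14.6 to 27.1) and mouse 5 at 14 weeks (31.2, others 1.40 to 4.71), and in progressors mouse 9 at 6 weeks (162, others 18.0 to 36.7) and at 7 weeks before onset (16.4, others 2.65 to 4.86). Acod1 stood apart in that 6-week sample of progressor mouse 9 (66.1, others 1.43 to 10.2), in that 18-week sample of NOR mouse 4 (357, others 10.7 to 11.8), in NOR mouse 3 at 14 weeks (25, others 2.27 to 6.49) and in progressor mouse 10 at 3 weeks before onset (30.7, others 3.67 to 11.1).

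Retnla stood apart in nonprogressor mouse 5 at 14 weeks (443, others 17.4 to 61.4), the sample in which Il13ra1 did so too (91.8, others 57.7 to 70.4), in nonprogressor mouse 1 at 18 weeks (43.8, others 16.7 to 18.5) and in progressor mouse 5 at 3 weeks before onset (33.7, others 2.73 to 11.2). Il4ra was high in the 6-week sample of NOR mouse 4 (257, others 149 to 162) and low in progressor mouse 8 at 5 weeks before onset (135, others 259 to 306). Il1rl1 was low in progressor mouse 1 at 3 weeks before onset (5.09, others 10.4 to 11.6).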

How the results depend on the processing

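For NOD against NOR, where no gene passed, 1 of 9 (Acod1) passed with each sample entered separately and 1 (Il33) with progressors alone, an alternative chosen after the data had been seen, as were the F tests over 5 ages. Acod1 gave 0.25 in 6-week samples alone and Il33 gave 0.0948 with nonprogressors alone. Arg1, which passed in no setting of that comparison, gave 0.14 in the main test and −1.89 (SE 0.64) in 6-week samples alone. For progressors at 7 weeks before onset, the replicate block gave 0 and leaving out each mouse gave 1 to 4. From 5 weeks before onset to onset, DESeq2 gave 2, batch 2 alone 2, and leaving out each mouse 0 to 1 (1 without mouse 2 or mouse 10). NOR ages gave 1 with DESeq2 and 7 with the F test. Nonprogressor ages gave 1 with DESeq2 size factors, 0 without a filter on low counts, 5 without the batch term, 0 with the replicate block and 0 to 2 without each batch 1 mouse. In the test over all progressor times, the mouse block took Il4ra (adjusted p = 0.28, edgeR) and Il13ra1 (adjusted p = 0.0785, edgeR) out of those called. The number there went from 6 to 4 genes, and no other call of that test changed.

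Signs turned as follows (log2 differences), limited to genes called in at least 1 setting of the comparison. In progressors from 5 weeks before onset, batch 1 alone gave 0.0296 for Il13ra1, 0.81 for Nos2 and 0.84 for Acod1, the block gave 0.31 for Acod1, and leaving out each mouse gave −0.83 to 0.14 for Nos2 and −0.21 to 1.07 for Acod1. At onset, Retnla gave −0.52 without the batch term, −2.25 in batch 2 alone and −0.52 to 0.41 without each mouse. In NOR, Nos2 without each mouse gave −0.17 to 1.03. In nonprogressors, Il13ra1 gave 0.0603 in batch 1 alone, Nos2 gave −1.67 in batch 2 alone and −0.0575 with the block, and leaving out each batch 1 mouse gave −0.0752 to 0.49 for Nos2 and −0.36 to 0.21 for Chil3. The causes were not tested.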

Other observations

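No comparison used the 6 samples of nonprogressors whose label gives the days since implantation. On day 31 their Arg1 levels were 159 and 76.4 CPM, on day 38 they were 28.3 and 6.88, and on day 108 they were 72.0 and 119. Chil3 had 50.9 and 24.6 CPM on day 31, 7.57 and 4.67 on day 38, and 6.81 and 20.1 on day 108. Acod1 was 17.7 and 23.4 CPM on day 31, 6.93 and 12.3 on day 38, and 8.74 and 10.6 on day 108, and Nos2 lay between 3.10 and 10.7 CPM in all 6.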
